A study of Mus musculus with 6 samples.

Results

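Connexins and pannexins are the families of membrane proteins that make up the channels between neighbouring cells and the large pores in the surface of single cells. The genes described here are 9 listed members of these families, the connexin genes Gja1, Gja3, Gja4, Gja5, Gjb2, Gjb5 and Gjc1 and the pannexin genes Panx1 and Panx3. They were chosen by name and not by a threshold on their values, with earlier results of these data known, and are 9 of the 23 connexin and pannexin genes that the GENCODE M21 annotation names, among 35968 genes with a transcript in the files. The question was which of these channel genes the mouse stromal line MS-5 expressed, and whether their levels differed after contact with leukaemic cells.

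The data are 3 RNA-seq libraries from MS-5 cells grown alone (MS-5 only, MO1 to MO3) and 3 from MS-5 cells that had shared a dish for 24 hr with SKM-1 (co-culture, MC1 to MC3). MS-5 is an established line of mouse bone marrow stroma, and SKM-1 is a human acute myeloid leukaemia line. Both groups were unmodified MS-5 cells in the same RPMI medium with serum, and the co-cultures received 4 leukaemic cells for each stromal cell, at 750000 leukaemic cells per ml. Attached leukaemic cells were washed off and lightly trypsinised away before the stromal RNA was taken. Each group is 1 cell line, the labels do not say whether the libraries came from separate cultures, and the p-values below measure only the spread between these libraries, which may be technical.

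A connexin hemichannel is a ring of connexin subunits, and a gap junction forms where hemichannels of neighbouring cells dock, which lets ions and small metabolites pass directly between the cells. Pannexins make similar pores that as a rule stay in the membrane of one cell, where they release ATP into the medium. In the bone marrow, gap junctions built from the Gja1 protein couple stromal cells to one another and to blood-forming cells.

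Library depth ranged from 23978881 to 35694987 estimated counts. MO2 and MC3 stood apart from the other 4 libraries, with mitochondrial shares of 6.07% and 5.92% of the counts against 10.6% to 13.2%, and they were also set apart on the second principal component, which held 25.6% of the variance. The stromal identity of the cells could be checked on 12 stromal marker genes, all of which had a mean of at least 1 TPM in MS-5 only. None of the 12 passed the test, and 4 did with a term for MO2 and MC3 in the fit, of which 3 were higher and 1 lower, which is near the 30.2% of all tested genes that passed with that term. Of 15 leukocyte markers, 13 were tested and 7 were higher in co-culture, where 3.71% of all tested genes were. The 7 had 0 to 17 counts in each MS-5 only library and needed the co-culture libraries to pass the filter on low counts. That share is therefore no fair measure for them. The summed level of the 15 was 75.2 to 102 CPM in MS-5 only, 125 CPM in MC1, 407 CPM in MC2 and 119 CPM in MC3. Vav1, a leukocyte signalling protein, was at 1, 0 and 0 counts in MO1 to MO3 against 39, 164 and 55 in MC1 to MC3. Not all markers moved this way: 4 of the 13 had a negative fold change, Itgal (log2 fold change -0.73, lower in CPM in all 3 co-culture libraries, adjusted p = 0.196, not past the threshold), Lyz2 (-0.37), Cd74 (-0.21) and Cd53 (-0.11). With the same term 10 leukocyte markers passed, 9 higher and 1 lower, the latter being Itgal (adjusted p = 0.0327). The summed leukocyte signal of each co-culture library thus exceeded that of all 3 MS-5 only libraries, with the highest sum in MC2. Its part in the values of the channel genes was not tested. Values given below without MC2 do not test it, since MC1 and MC3 also carried this signal.

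MS-5 expressed a connexin set led by Gja1, with Gjc1 and Panx1 at lower levels and the other listed genes close to or at the limit of detection. Levels between genes are compared as TPM, the authors' measure per transcript length, scaled to a common total in each library. In MS-5 only, Gja1 had a mean of 105 TPM ± 21.3 (SD, n = 3), Gjc1 17.9 ± 5.22 and Panx1 5.11 ± 1.11, and these were the 3 members with a mean of at least 1 TPM. Gjb5 followed at 0.414 TPM ± 0.10, Gja5 at 0.167 ± 0.0982, Gja4 at 0.0729 ± 0.0114 and Panx3 at 0.0621 ± 0.0268. Gja3 and Gjb2 had no count in any library.

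The order from Gja1 through Gjc1, Panx1 and Gjb5 to Gja5 held without overlap of the MS-5 only ranges, with ratios of mean TPM between neighbours of 5.89, 3.50, 12.4 and 2.47. The ranges of Gja5 and Gja4 overlapped, as did those of Gja4 and Panx3, so the order of these lowest genes was not resolved. In co-culture the first 3 kept their order, at means of 77.3 TPM ± 18.9 for Gja1, 17.1 ± 6.23 for Gjc1 and 5.89 ± 1.36 for Panx1. Gja1 lay above Gjc1, and Gjc1 above Panx1, in all 6 libraries. Of the 14 family genes outside the list, 3 also had a mean of at least 1 TPM in MS-5 only, between 4.67 and 16.3 TPM, which is in the range of Panx1 and Gjc1 and under Gja1, and 2 had no count in any library.

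**Figure D1:**
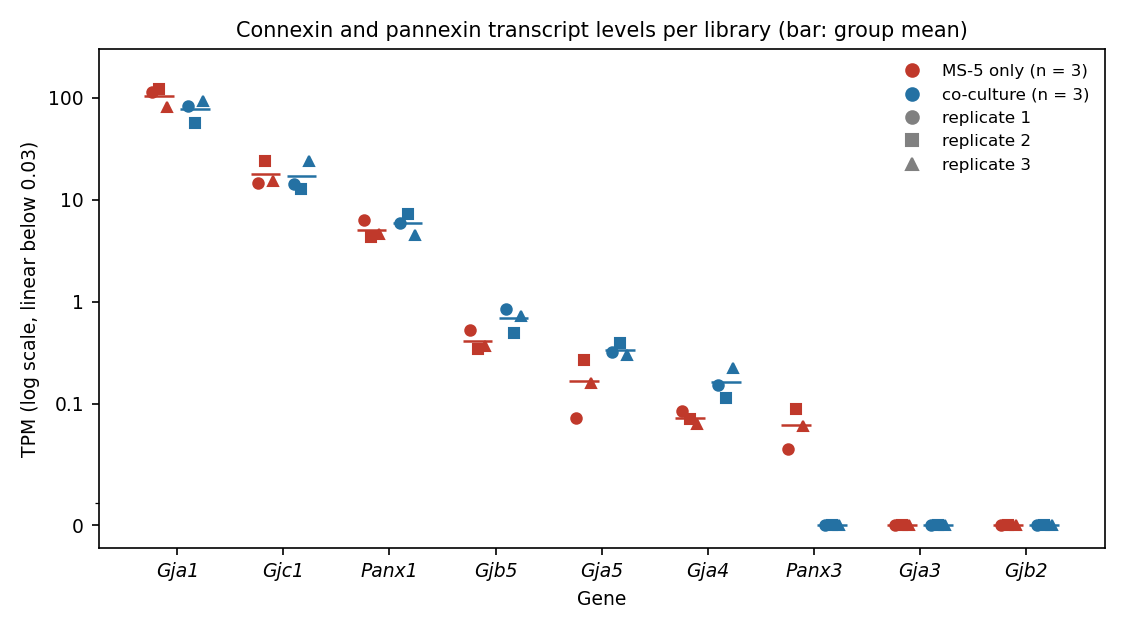
Level of each of the 9 genes in TPM (y axis, log scale that is linear below 0.03) in each of the 3 MS-5 only (red) and 3 co-culture (blue) libraries, with a bar at the group mean and the replicate number given by the marker. Gja1 lies above every other gene in all 6 libraries, the groups overlap for Gja1, Gjc1, Panx1 and Gjb5, and Gja3 and Gjb2 lie at 0.

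The genes lie on 6 chromosomes of the GRCm38 build. Gja1 (ENSMUSG00000050953.10) spans chr10:56377330-56402513 on the plus strand, Gjc1 (ENSMUSG00000034520.14) spans chr11:102799579-102819700 on the minus strand and Panx1 (ENSMUSG00000031934.14) spans chr9:15002128-15045478 on the minus strand. Panx3 (ENSMUSG00000011118.4) lies on the same chromosome as Panx1, at chr9:37659902-37669235 on the minus strand. On chromosome 14, Gja3 (ENSMUSG00000048582.7, chr14:57034460-57058100, minus strand) and Gjb2 (ENSMUSG00000046352.7, chr14:57098600-57104702, minus strand) lie 40499 bases apart, and neither had a count. On chromosome 4, Gja4 (ENSMUSG00000050234.7, chr4:127311421-127314039, minus strand) and Gjb5 (ENSMUSG00000042357.2, chr4:127354809-127358181, minus strand) lie 40769 bases apart, and both were at low counts. Gja5 (ENSMUSG00000057123.14, chr3:96904693-97077416, plus strand) overlaps other annotated genes on the opposite strand, and whether strand was used in the quantification is not given in the sources used here, so its few counts are uncertain. In Gja1, Gjc1, Gja4, Gja5 and Gjb5 the main transcript carries its whole coding sequence in 1 exon, of 1146, 1188, 999, 1074 and 813 bases, whereas the coding transcripts Panx1-202 and Panx3-201 have 5 and 4 coding exons, of 1278 and 1176 bases in all.

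The promoter windows of the connexin with the highest level and of 1 without counts are shown to place both ends of the level order on sequence. Each window runs from 250 bases before to 50 bases after the RefSeq start (GRCm38.p6, printed 5′ to 3′ on the strand of the gene), with capitals for the motifs searched on both strands: the AP-1 element (TGAGTCA), the GC box (GGGCGG) and the TATA box (TATAAA).
Gja1 promoter, chr10:56377050-56377349, plus strand: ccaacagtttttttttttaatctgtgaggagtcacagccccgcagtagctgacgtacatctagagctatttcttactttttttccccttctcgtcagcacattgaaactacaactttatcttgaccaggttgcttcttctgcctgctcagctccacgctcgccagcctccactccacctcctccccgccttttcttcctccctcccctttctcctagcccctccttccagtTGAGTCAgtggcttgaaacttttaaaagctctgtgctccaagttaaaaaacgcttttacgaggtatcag
Gjb2 promoter, chr14:57104653-57104952, minus strand: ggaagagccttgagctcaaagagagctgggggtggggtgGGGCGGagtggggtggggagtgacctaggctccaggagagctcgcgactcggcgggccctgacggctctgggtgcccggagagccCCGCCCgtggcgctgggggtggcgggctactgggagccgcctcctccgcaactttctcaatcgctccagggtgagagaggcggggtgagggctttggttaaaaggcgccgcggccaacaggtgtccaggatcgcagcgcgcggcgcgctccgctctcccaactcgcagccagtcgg
The Gja1 window held 1 AP-1 element, at base 232 of the window, and no GC box or TATA box. The Gjb2 window held 2 GC boxes, at bases 40 and 125, the latter on the opposite strand. Among 32851 mouse promoter windows of the same length, 5.20% held the AP-1 element, 35.7% the GC box and 13.6% the TATA box. GC content was 47.7% in Gja1 and 70.0% in Gjb2, against a median of 52.7% over all windows. Windows were found for 7 of the 9 genes, and the AP-1 element occurred in that of Gja1 alone. These matches describe letters in the window and were not tied to expression.

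Gja1 encodes the alpha connexin that is the main gap junction protein of fibroblasts, bone-forming cells and marrow stroma. Its estimated counts were 7572, 6650 and 4857 in MO1 to MO3 and 7206, 3817 and 5441 in MC1 to MC3. As TPM, Gja1 was at 113, 122 and 81.3 in MO1 to MO3 and at 82.8, 56.2 and 92.8 in MC1 to MC3. MC2 was the lowest library, but MC1 and MC3 lay above MO3, so the groups overlapped in TPM. Among all genes detected in a library, Gja1 exceeded between 88.9% (MC2) and 93.7% (MO2) in TPM.

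Normalised by TMM, which adjusts for library composition, Gja1 was at 302, 212 and 220 CPM in MO1 to MO3 and at 220, 159 and 158 CPM in MC1 to MC3. MC2 and MC3 lay under every MS-5 only library, whereas MC1 lay between MO2 and MO3, so the groups overlapped on this scale too. The log2 fold change was -0.45 (SE 0.22, 95% interval -0.97 to 0.07), with an unadjusted p of 0.0786 and an adjusted p of 0.425. This did not pass the threshold of 0.1, and the interval covers both no change and a loss to 0.51 of the MS-5 only level. Within the 4 libraries other than MO2 and MC3 the log2 fold change was -0.45 (adjusted p = 0.276), and with a term for MO2 and MC3 in the fit of all 6 libraries it was -0.45 (adjusted p = 0.103). Without MC2, the library with the most leukocyte signal, it was -0.37 (adjusted p = 0.742). In these bulk libraries, fewer cells of a type and less RNA per cell cannot be told apart.

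As a share of the summed TPM of the 9 genes, Gja1 made up 83.9%, 80.8% and 79.9% in MO1 to MO3 against 79.4%, 72.8% and 75.6% in MC1 to MC3. In TPM every co-culture library lay under every MS-5 only library, with MC1 within 1 percentage point of MO3. In CPM the shares overlapped, with MC1 above MO2 and MO3. Gja1 held 219.9 of a summed 248.4 CPM in MC1, against 211.7 of 240.9 in MO2 and 220.1 of 249.2 in MO3. Over all 23 family genes the TPM shares were 62.9%, 67.1% and 61.4% against 58.0%, 53.2% and 58.7%, without overlap. These shares are given as a description, since 3 against 3 libraries cannot reach an exact permutation p under 0.1. The ratio of Gja1 to Gjc1 TPM was 7.75, 5.09 and 5.36 in MO1 to MO3 against 5.80, 4.41 and 3.83 in MC1 to MC3, where the groups overlapped. The non-overlap of the TPM shares therefore did not extend to the ratio between the 2 leading connexins.

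Nearly all Gja1 counts, 98.6% to 99.8% in each library, were assigned to Gja1-201, a coding transcript of 3071 bases with 2 exons. Gja1 was thus measured as essentially 1 transcript in both groups.

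**Figure D2:**
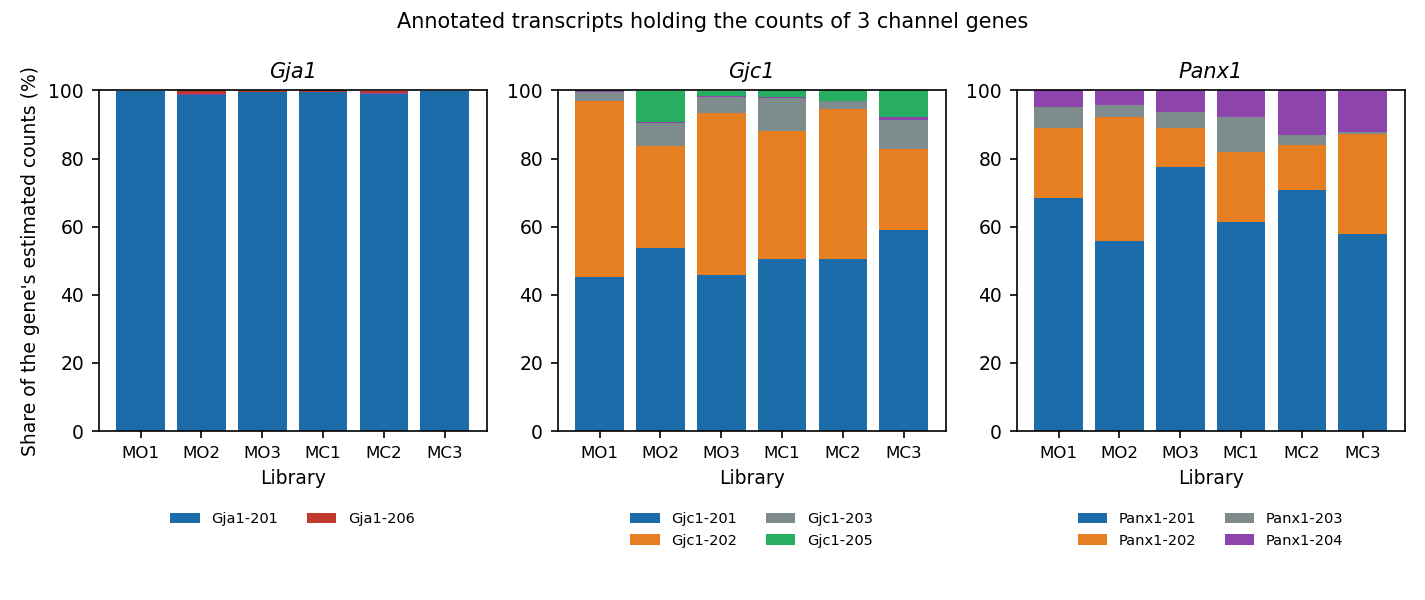
Share of each gene's estimated counts (y axis, percent) held by its annotated transcripts in each library (x axis), for Gja1, Gjc1 and Panx1. Gja1-201 holds at least 98.6% of Gja1 in every library, Gjc1 is divided mainly between Gjc1-201 and Gjc1-202, and Panx1-201, annotated for nonsense-mediated decay, holds the largest share of Panx1.

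Gjc1 encodes a gamma connexin known from the early heart, the conduction system and smooth muscle, whose protein can share channels with that of Gja1. Its counts were 567, 777 and 515 in MO1 to MO3 and 699, 524 and 754 in MC1 to MC3. In CPM these were 22.6, 24.7 and 23.3 against 21.3, 21.8 and 21.9. All 3 co-culture libraries lay under all 3 MS-5 only libraries, within a narrow band. Of the 5 members that could be tested, Gjc1 was the only one whose groups did not overlap in CPM, while 21.2% of all tested genes did not overlap, 9.6% with co-culture lower and 11.6% with co-culture higher.

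For Gjc1 the log2 fold change was -0.12 (SE 0.12, 95% interval -0.41 to 0.17, adjusted p = 0.775), which did not pass. In TPM the order was different: 14.6, 23.9 and 15.2 in MO1 to MO3 against 14.3, 12.8 and 24.2 in MC1 to MC3, with the highest values in MO2 and MC3, the libraries that stood apart. In the same libraries Gjc1-205, a transcript with a retained intron, held 9.21% and 7.69% of the gene's counts, against at most 3.17% in the other 4. Without MO2 and MC3 the log2 fold change was -0.07 (adjusted p = 0.716).

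Gjc1 counts were divided between coding transcripts with different start sites. Gjc1-201 (start at base 102819179) held 45.2% to 59.1% of the counts and Gjc1-202 (start at base 102819700) held 23.8% to 51.8%. Gjc1-202 was at 7.35, 7.21 and 6.78 TPM in MO1 to MO3 and at 5.03, 5.76 and 5.11 TPM in MC1 to MC3, without overlap. Its share of the Gjc1 counts was 51.8%, 30.0% and 47.6% against 37.4%, 44.1% and 23.8% and did overlap (two-sided exact permutation p = 0.4). Gjc1-201 was at 6.36, 12.8 and 6.48 TPM against 6.76, 6.53 and 12.6 TPM and overlapped. Among the 5 Gjc1 transcripts only Gjc1-202 separated the groups in TPM. Gjc1-201 and Gjc1-202 both encode 1188 coding bases, and the split between them is an estimate from the reads that tell them apart.

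Panx1 encodes the most widely expressed pannexin, a channel through which cells release ATP. MO1 to MO3 held 166, 110 and 99 counts, and MC1 to MC3 held 160, 133 and 84. In CPM it was at 6.63, 3.50 and 4.49 in MO1 to MO3 and at 4.88, 5.52 and 2.45 in MC1 to MC3. The groups overlapped, and the lowest library of each was 1 of those that stood apart, MO2 and MC3.

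For Panx1 the log2 fold change was -0.19 (SE 0.39, 95% interval -1.13 to 0.76, adjusted p = 0.936). In TPM the values were 6.38, 4.33 and 4.62 against 5.90, 7.24 and 4.52, so the sign of the difference in means was the opposite of that in CPM. With an offset for effective length the log2 fold change was 0.23, and in limma on log2(TPM + 0.5) it was 0.18. Panx1 therefore had no direction that held across scales.

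Panx1 counts were spread over 4 annotated transcripts. Panx1-201, of 1854 bases and annotated for nonsense-mediated decay, held 55.8% to 77.5% of the counts. The full coding transcript Panx1-202, of 5732 bases, held 11.4% to 36.6%. Panx1-204, a coding fragment of 357 bases, held 4.88%, 4.39% and 6.24% of the counts in MO1 to MO3 against 7.64%, 13% and 12.2% in MC1 to MC3. The share of this fragment did not overlap between groups (difference of 5.76 percentage points, two-sided exact permutation p = 0.1, the smallest that 3 against 3 libraries can give), on 4.83 to 17.3 estimated counts per library. Because it is short, these few counts made up 32.7% to 62.6% of the Panx1 TPM, whereas Panx1-202 made up 1.85% to 8.80%. Count shares were compared in this way for 4 Panx1, 8 Gja1, 5 Gjc1 and 3 Gja5 transcripts. Panx1-204 is picked from these as the only one with a permutation p of 0.1. On the coding transcripts alone the log2 fold change of Panx1 was -0.02 (adjusted p = 0.994).

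The remaining connexins with counts were measured on few reads. Gjb5 encodes a beta connexin of skin and placenta. MO1 to MO3 held 19, 10 and 12 counts and MC1 to MC3 held 40, 18 and 23, or 0.758, 0.318 and 0.544 CPM against 1.22, 0.748 and 0.670 CPM. MC1 was the highest library, and MC2 and MC3 lay under MO1, so the groups overlapped. Its log2 fold change was 0.71 (SE 0.49, 95% interval -0.46 to 1.87, adjusted p = 0.612).

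Gja5 encodes a connexin of arterial endothelium and the atria. MO1 to MO3 held 5, 15 and 10 counts, and MC1 to MC3 held 29, 10 and 18. In CPM the groups overlapped, since MC2 (0.415) lay under MO2 (0.477) and MO3 (0.453). Its log2 fold change was 0.69 (SE 0.53, 95% interval -0.59 to 1.96, adjusted p = 0.667). In TPM the values were 0.0727, 0.269 and 0.161 against 0.325, 0.392 and 0.301 and did not overlap. The MC2 value changes with the transcript that receives the reads: Gja5-202, of 405 bases, held 13.6% of its counts and 68.0% of its TPM in that library and nothing in the others. The log2 fold change was 1.11 with the effective length offset and 1.03 without MO2 and MC3, and it did not pass in either (adjusted p = 0.496 and 0.42).

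Gja4, another connexin of arterial endothelium, had 3, 2 and 2 counts in MO1 to MO3 and 7, 4 and 7 in MC1 to MC3, and was not tested because it did not pass the filter on low counts. Every co-culture library had more counts than every MS-5 only library, on sums of 7 and 18 counts. Of 8 endothelial markers, 2 were tested and neither passed, and their summed level was 0.842 to 1.38 TPM in MS-5 only and 2.95, 9.35 and 3.21 TPM in MC1 to MC3. Pecam1, which leukocytes also express, had 18, 30 and 18 counts in MO1 to MO3 against 86, 186 and 38 in MC1 to MC3. Egfl7, a protein secreted by endothelium, had 1, 2 and 2 counts against 10, 27 and 8, and the endothelial receptor gene Tie1 had 2, 4 and 0 against 5, 17 and 11, and neither was tested. All 3 had more counts in every co-culture library than in any MS-5 only library, with the most in MC2. Cdh5, the endothelial cadherin, overlapped between groups, with 18, 13 and 3 counts against 16, 9 and 17, and none of Kdr, Tek, Emcn and Erg had more than 6 counts in a library. The part of these markers in the Gja4 and Gja5 values was not tested.

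Panx3 encodes the pannexin of bone-forming and cartilage cells. MO1 to MO3 held 2, 4 and 3 counts, and the co-culture libraries none. These levels are at or near the floor of 3 counts per library that a count of 0 allows (0.0422 to 0.0676 TPM), so no fold is given and no test was made. Of 8 bone and cartilage markers, 2 were tested and neither passed. Runx2 (1161 to 2566 counts in MS-5 only against 1111 to 2423 in co-culture) and Alpl (270 to 586 and 372 to 1261) were expressed in both groups, whereas Ibsp had no count and Acan at most 1. Sp7, a transcription factor of bone-forming cells, was not tested and had 5, 10 and 2 counts in MO1 to MO3 against 5, 21 and 7 in MC1 to MC3, so its groups overlapped in counts. In TPM, Sp7 was at 0.0323 to 0.196 in MS-5 only and at 0.0609, 36.4 and 5.91 in MC1 to MC3, also with overlap. The 36.4 TPM in MC2 rests on 21 counts, while 5 counts in MC1 gave 0.0609 TPM. These TPM values do not follow the counts and are not read as a rise. The part of these markers in the Panx3 values was not tested.

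Gja3, a connexin of lens fibres, and Gjb2, the connexin of the inner ear and many epithelia, had no count in any of the 6 libraries. A count of 0 allows up to 3 counts, which were worth 0.0734 to 0.118 TPM for Gja3 and 0.0444 to 0.0715 TPM for Gjb2. This floor covers counting error only, and expression under it was not detectable at this depth. Of 8 epithelial markers, 1 was tested and did not pass. Epcam had 0, 0 and 1 counts in MO1 to MO3 and 11, 68 and 13 in MC1 to MC3, and Cdh1, the epithelial cadherin, had at most 2 counts in a library.

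Of the 9 genes, 5 passed the filter on low counts (Gja1, Gjc1, Panx1, Gjb5 and Gja5) and 0 of these passed the adjusted threshold, against 4.38% of the 13221 genes tested (3.71% higher and 0.666% lower in co-culture). By unadjusted p under 0.05 the count was also 0 of 5, against 14.3% of all tested genes, and DESeq2 and limma likewise called 0. The fitted change was negative in 3 (Gja1, Gjc1 and Panx1) and positive in 2 (Gjb5 and Gja5), with a median log2 fold change of -0.12 against -0.02 over all tested genes. All 5 intervals include changes in both directions. Of the other 14 family genes, 3 were tested and none passed, with log2 fold changes from -0.39 to 0.29.

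**Figure D3:**
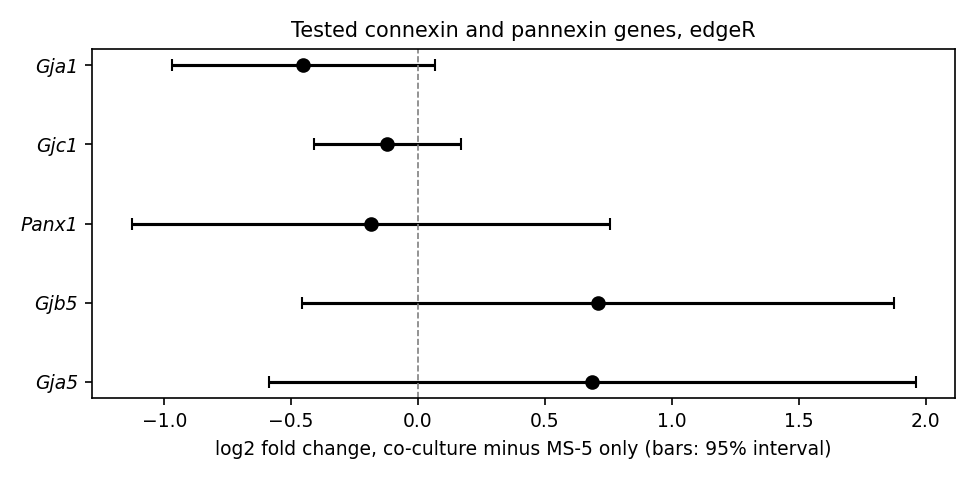
Log2 fold change in co-culture relative to MS-5 only (x axis) with 95% intervals for the 5 genes that passed the filter on low counts, ordered by level. All 5 intervals include 0, and the interval is narrowest for Gjc1 (-0.41 to 0.17) and widest for Gja5 (-0.59 to 1.96).

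**Figure D4:**
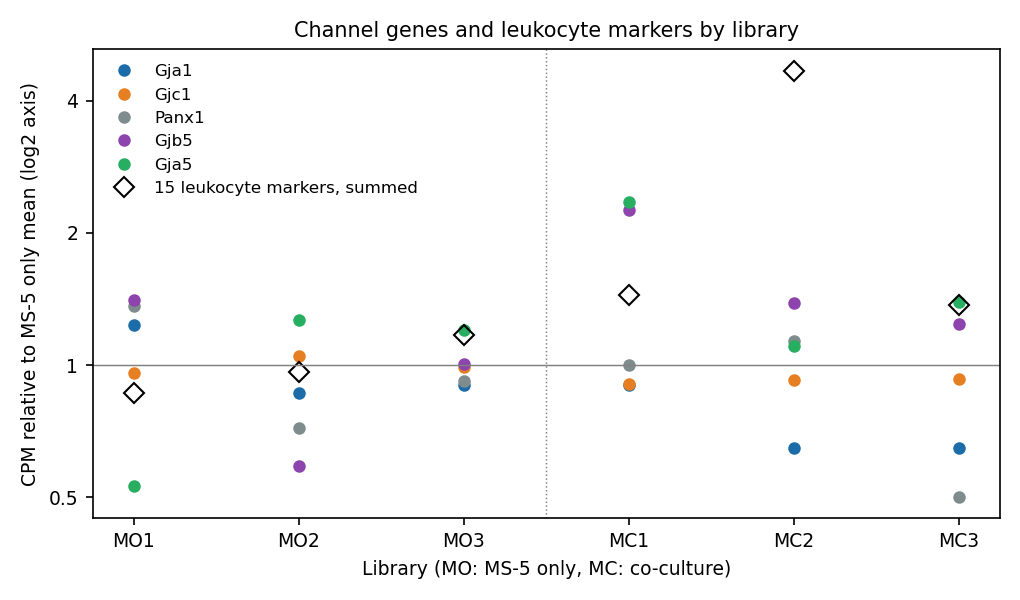
CPM of the 5 tested genes and of the summed 15 leukocyte markers in each library, relative to the mean of the 3 MS-5 only libraries (y axis, log2 scale). The leukocyte sum is highest in MC2, while Gja1 is about equally low in MC2 and MC3 (159 and 158 CPM) and Panx1 is lowest in MC3 (2.45 CPM).

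Gap junction proteins are assembled, anchored and removed by a set of partner proteins, most of them described for the Gja1 product. Of 18 such partner genes 17 were tested, 1 was higher, 0 were lower and 16 did not pass, with a median log2 fold change of -0.02. The 1 call among 17 is near the background of 4.38% over all tested genes and is no result about the list. The gene that rose was Dbn1, which encodes drebrin, an actin-binding protein known to hold Gja1 channels at the membrane. Dbn1 had 997, 1151 and 784 counts in MO1 to MO3 and 2194, 1791 and 2141 in MC1 to MC3, or 35.5 to 39.8 CPM against 62.3 to 74.4 CPM. All co-culture libraries lay above all MS-5 only libraries, and the log2 fold change was 0.86 (SE 0.13, adjusted p = 0.0734). The call held without MC2 (log2 fold change 0.79, adjusted p = 0.0871) and without MO2 and MC3 (0.93, adjusted p = 0.075). The call was lost in limma (adjusted p = 0.316 to 0.348), with a replicate block (adjusted p = 0.131) and without any 1 of MO1, MO2, MO3 and MC1 (adjusted p = 0.101 to 0.304), while the log2 fold change stayed between 0.79 and 0.93.

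Partners with a high TPM did not pass. Nedd4, a ubiquitin ligase that marks the Gja1 protein for removal, had a log2 fold change of 0.07 (adjusted p = 0.957). Ctnnb1, the beta-catenin of adherens junctions, had -0.16 (adjusted p = 0.771), and its CPM was lower in every co-culture library. Mapk3, a kinase that phosphorylates the Gja1 protein, had 0.30 (adjusted p = 0.634). With the term for MO2 and MC3, under which 30.2% of all tested genes passed, 3 partners did: Dbn1 (log2 fold change 0.86), the scaffold Tjp1 (0.35) and, in the lower direction, the N-cadherin gene Cdh2 (-0.25). Tjp1 and Cdh2 are named after their values were seen.

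ATP released through pannexin channels acts on purinergic receptors and is broken down by ectoenzymes. Of 22 genes of these receptors and enzymes 7 were tested and 0 passed, with log2 fold changes from -0.78 to 0.82. P2rx4, an ATP-gated cation channel, had the highest level at a mean of 61.5 TPM over the 6 libraries, with a log2 fold change of -0.25 (adjusted p = 0.753). The adenosine receptor gene Adora2b had 0.18, and the ATP and UTP receptor gene P2ry2 had 0.45. Enpp1, an ectoenzyme that cleaves ATP, was at 6.79, 15.3 and 15.7 CPM in MO1 to MO3 and at 19.3, 22.3 and 25.1 CPM in MC1 to MC3. Its groups did not overlap, but the log2 fold change of 0.82 (SE 0.33) had an adjusted p of 0.333 and passed only with the term for MO2 and MC3 (adjusted p = 0.0923).

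Other gene families also form large pores. Of 9 such genes 6 were tested, 1 was higher and 0 were lower, against 3.71% higher and 0.666% lower over all tested genes, and 1 call says little about so short a list. The one that rose was Lrrc8c, a subunit of volume-regulated anion channels, with 1, 1 and 2 counts in MO1 to MO3 and 16, 68 and 19 in MC1 to MC3. It passed the filter on low counts only through the co-culture libraries, so its call depends on the group where it was high. MC2 had the most counts, as it had for the leukocyte markers, whose part in this result was not tested. The log2 fold change of Lrrc8c was 4.50 (SE 1.01, adjusted p = 0.0898) and 3.23 without MC2 (adjusted p = 0.0857), and with so few counts in MS-5 only its size depends on the fit: it was 1.87 and 1.27 in limma at pseudocounts of 0.5 and 1, and 7.48 with the effective length offset. The call was lost in limma at pseudocounts of 0.5 and 1 (adjusted p = 0.205 and 0.33), with a replicate block (log2 fold change 4.21, adjusted p = 0.13) and without any 1 of MO1, MO2, MO3 and MC1 (log2 fold change 4.22 to 5.01, adjusted p = 0.107 to 0.311). The 4 genes of this list with the highest TPM did not pass: the channel subunits Lrrc8d (log2 fold change 0.52) and Lrrc8a (0.33), and Calhm2 (-0.23) and Calhm5 (-0.25) of the calcium homeostasis modulator family.

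**Figure D5:**
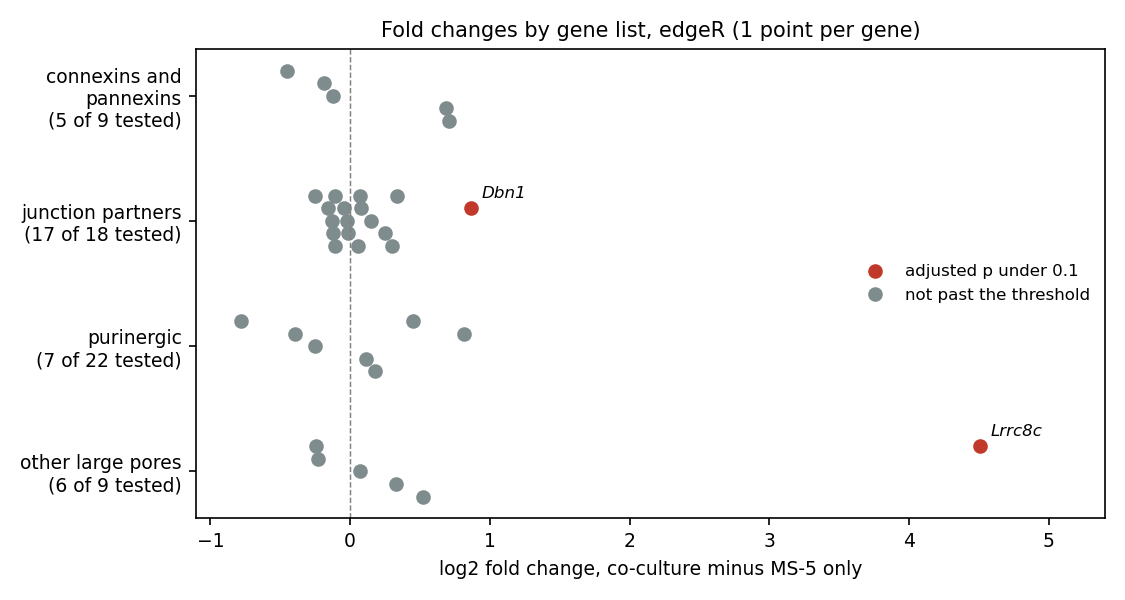
Log2 fold change in co-culture relative to MS-5 only (x axis) of each tested gene, by list, with genes past the threshold in red. None of the 5 tested connexins and pannexins passed, 1 of 17 junction partners did (Dbn1, 0.86), none of 7 purinergic genes did and 1 of 6 genes of other large pores did (Lrrc8c, 4.50).

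For the 3 members with the highest level, the genes with the most similar pattern over the 6 libraries were taken as those with the smallest root mean square difference in centred log2 CPM, among 13216 tested genes other than the members. For Gja1, whose own values spread by 0.319 on this scale, these were Adgrg3 (0.0621), Gm6710 (0.0628) and Ldlrad3 (0.0726). For Gjc1, whose spread was 0.0714, they were C87436 (0.0230), Zc3hav1 (0.0242) and Washc5 (0.0247). For Panx1, whose spread was 0.458, they were Ppih (0.0857), Timm13 (0.102) and Cct3 (0.105). Timm13 and Cct3, which encode a mitochondrial import protein and a chaperonin subunit, shared with Panx1 their lowest values in MO2 (72.6 and 202 CPM) and MC3 (60.5 and 166 CPM). These distances rest on 6 libraries that share their groups and depth, and none of the 9 similar genes passed the test.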

How the data were processed

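Stranded mRNA libraries of MS-5 cells were sequenced as paired reads. The authors quantified them with Kallisto (0.43.0 in the submitters' notes) against a mouse cDNA index of GRCm38, and deposited an estimated count, a length and an effective length for 118489 transcripts per library, without normalization between libraries. The deposited TPM values are these counts per effective length, scaled to a common total. The submitters' notes also name FastQC (0.11.7) and sleuth (0.30.0), and sleuth was not run here.

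Transcripts were named with GENCODE M21 (GRCm38): 116728 matched and 1761, with 0.476% to 0.562% of the counts, were left out. Counts of the transcripts of each gene were added up and rounded. Of 35968 genes, 13221 passed edgeR's filterByExpr. Groups, taken from the labels, were compared with the quasi-likelihood F test of edgeR (4.0.16, under R 4.3.3), using TMM normalization (factors 0.923 to 1.17), without covariates, with Benjamini-Hochberg adjustment over all tested genes and a threshold of 0.1. SEs were obtained from the log2 fold change and the root of its F statistic. TPM was summed per gene without a pseudocount. The procedure was tested on simulated data.

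Alternatives were other size factors, DESeq2 (1.42.0), limma (3.58.1) on log2 TPM after adding 0.5, 0.1 or 1, other count filters, an effective length offset, a replicate block, omission of each library, a term for MO2 and MC3, and a threshold of 0.05. Leaving out MO2 and MC3 together, and counting coding transcripts of Panx1 alone, were added after the data were seen.

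The genes and lists (stromal, leukocyte, endothelial, epithelial, and bone and cartilage markers, junction partners, purinergic genes and other large pores) were chosen with earlier results of these data known. Named were all 9 members, the genes of a list past the threshold, the 4 with the highest mean TPM, and the 3 nearest in pattern to each of the 3 members with the highest TPM. Some results are not reported here. Depth was 23978881 to 35694987 estimated counts, so that genes with few counts are limited by counting error and the others by the spread between 3 libraries.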

Additional observations from a re-analysis of the deposited data

How the results depend on the processing

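None of the 5 tested connexins and pannexins passed under any alternative, and the 3 genes at a mean of 1 TPM or more were also 3 by CPM per kilobase. The fitted direction held under every alternative for Gja1 (-0.63 to -0.26), Gjc1 (-0.14 to -0.07), Gjb5 (0.26 to 1.05) and Gja5 (0.20 to 1.11). Panx1 turned positive in limma (0.18, 0.20 and 0.17 at pseudocounts of 0.5, 0.1 and 1) and with the effective length offset (0.23), and ran from -0.41 to 0.11 with 1 library left out. Adora2b ran from -0.022 to 0.34 with 1 library left out. The causes were not tested. Over all genes, 579 passed, against 1268 in DESeq2, 356 and 224 in limma at pseudocounts of 0.5 and 1, 3999 with the term for MO2 and MC3, 1655 without both, 2 at a threshold of 0.05 and 0 to 509 with 1 library left out (0 without MO1, MO2 or MO3, and 287 without MC1). Of the junction partners, 1 passed, against 0 in limma at all 3 pseudocounts, 0 with the replicate block, 0 at 0.05, 3 with the term for MO2 and MC3, 2 without both and 0 to 1 with 1 library left out. Of the purinergic genes, 0 passed, against 1 with that term. Of the other large pores, 1 passed, against 0 in limma at 0.5 and 1, 0 with the replicate block, 0 at 0.05, 2 with that term and 0 to 1 with 1 library left out. With the replicate block 444 genes passed in all. Replicate numbers did not pair the libraries: deviations from the group means correlated at 0.53, -0.29 and -0.52 for numbers 1 to 3, and MO2 correlated with MC3 at 0.73.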
